A study of Mus musculus with 9 samples.

Results

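Gabrp, Depp1, Olfm1, Chil1, Hal, Ttpa, Ggh and Pinlyp are 8 of the 15158 genes in the deposited expression table. They were chosen because they were abundant in control uterine luminal epithelium and far lower in epithelium that overexpressed isoform A or isoform B of the progesterone receptor. The levels in those genotypes against the control therefore chose them, and are given below as a description with no test. The rule set no numeric limit. Depp1 and Chil1 were listed at 0 in 1 library with isoform A, and the median of the 8 genes was 1.84% of the control level with isoform A and 5.53% with isoform B. The rule named no direction for the difference between the isoforms, but the choice can tilt it. It did not use the order of the libraries within a genotype, the neighbouring genes or the other genes of each pathway. The pathway lists were chosen with earlier results of these data known.

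The tissue was luminal epithelium, the cell layer that lines the uterine cavity and that an embryo attaches to, cut out by laser capture on day 4 of pregnancy. The 3 genotypes were sequenced in 3 libraries each, from females housed until 8 weeks of age. The ePRAoe mice were Wnt7acre/+PgrALsL/+ and the ePRBoe mice Wnt7acre/+PgrBLsL/+, names in which LsL marks a stop cassette flanked by lox sites, so that Cre recombinase switches on the isoform. The control mice, Wnt7acre, had the Cre allele alone. By these names every mouse in all 3 genotypes carried Wnt7acre, a Cre named after the epithelial gene Wnt7a, and no mouse without Cre was used here. The names do not say whether Cre sits in the Wnt7a locus. The labels give a replicate number per library but no animal, so p-values measure the spread between these libraries, which may in part be technical. The labels also name 3 sequencing runs. All ePRBoe libraries, ePRAoe 2 and Wnt7acre 3 were read in run 1, ePRAoe 3 and Wnt7acre 2 in run 2, and ePRAoe 1 and Wnt7acre 1 in run 3.

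The progesterone receptor is a nuclear receptor that binds DNA when it holds progesterone. A single gene, Pgr, gives rise to isoforms A and B, which share the DNA-binding and hormone-binding domains, while B has an additional stretch at its amino end. In the mouse uterus progesterone stops the epithelium from dividing and prepares it for the embryo, and the receptor normally declines in the luminal epithelium around attachment.

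Pgr itself stood at 41.7, 49.5 and 42.8 FPKM in ePRAoe 1 to 3 and at 38.1, 38.3 and 45.9 FPKM in ePRBoe 1 to 3, against 17.4, 3.82 and 6.62 FPKM in Wnt7acre 1 to 3. FPKM is the number of sequenced fragments of a gene divided by its length and by the depth of the library, so that levels of different genes can be set side by side. Each library summed to 272213 to 314010 FPKM, and 11074 to 12300 genes reached 1 FPKM. Pgr rose in both genotypes (limma, adjusted p = 0.00483 in ePRAoe and 0.0168 in ePRBoe) and its log2 difference of ePRBoe over ePRAoe, -0.10, did not pass (limma, adjusted p = 0.911). The ePRBoe call for Pgr was lost without Wnt7acre 3, ePRAoe 2, ePRBoe 2 or ePRBoe 3 (adjusted p = 0.0508 to 0.186). The table counts per gene and does not tell the transcripts of the isoforms apart. Wnt7a, the gene that the Cre is named after, had 36.6, 10.1 and 15.7 FPKM in ePRAoe 1 to 3 and 50.005, 22.7 and 14.1 FPKM in ePRBoe 1 to 3, against 66.1, 63.4 and 40.9 FPKM in Wnt7acre 1 to 3. Wnt7a fell by 1.57 on the log2 scale in ePRAoe (limma, adjusted p = 0.0457), a call lost without ePRAoe 2, ePRAoe 3, ePRBoe 2, Wnt7acre 2 or Wnt7acre 3 (0.0708 to 0.194), and its -0.50 in ePRBoe did not pass (adjusted p = 0.605). All fits held a run term. In ePRAoe over Wnt7acre, leaving out either the ePRAoe or the Wnt7acre library of a run gave the same log2 fold change. Such a pair of losses counts as 1 check, here and below. In the other comparisons this held for runs 2 and 3. Leaving out an ePRBoe library did not change log2 fold changes of ePRAoe over Wnt7acre, only the estimated spread, degrees of freedom and genes tested.

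The 250 bases before the start of 3 of the genes are shown because these 3 kept the smallest share of their control level in ePRAoe. CG pairs are common in the promoters of many broadly used genes. The sequences are from RefSeq on GRCm38.p6, printed 5′ to 3′ on the strand of the gene, with each CG pair in capitals. Gabrp lies at chr11:33578958-33579207 on the reverse strand, Chil1 at chr1:134181906-134182155 on the forward strand and Hal at chr10:93488518-93488767 on the forward strand.
Gabrp: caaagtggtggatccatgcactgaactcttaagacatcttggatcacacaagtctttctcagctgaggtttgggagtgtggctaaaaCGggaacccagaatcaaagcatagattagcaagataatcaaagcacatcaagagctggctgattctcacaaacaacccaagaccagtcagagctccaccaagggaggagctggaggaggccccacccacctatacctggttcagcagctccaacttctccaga
Chil1: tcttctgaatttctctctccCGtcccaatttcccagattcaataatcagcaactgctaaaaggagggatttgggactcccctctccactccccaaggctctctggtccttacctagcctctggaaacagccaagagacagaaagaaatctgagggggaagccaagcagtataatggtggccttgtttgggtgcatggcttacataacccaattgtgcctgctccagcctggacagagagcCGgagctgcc
Hal: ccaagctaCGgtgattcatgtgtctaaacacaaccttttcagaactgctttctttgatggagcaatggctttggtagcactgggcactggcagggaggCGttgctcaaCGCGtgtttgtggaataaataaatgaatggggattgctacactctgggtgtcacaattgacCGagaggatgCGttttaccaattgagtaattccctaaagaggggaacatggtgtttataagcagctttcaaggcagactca
The Gabrp window held 1 CG pair, the Chil1 window 2 and the Hal window 6. RefSeq windows were matched for 6 of the 8 genes, 7 windows in all since Olfm1 has a pair of starts, and none was matched for Ttpa and Ggh. Depp1 had 2 CG pairs and Pinlyp 3, while the Olfm1 windows had 23 and 32. In all, 5 of the 7 windows held 6 CG pairs or fewer, as did 53.7% of the 32851 windows of the table. Both strands of the windows were searched for fixed letters. The half-site AGAACA, which reads as TGTTCT on the opposite strand and is bound by steroid receptors of the progesterone type, was in 0 of the 7 windows and in 16.1% of all windows. The palindrome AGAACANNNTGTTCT, which contains it, was in 0 of 7 and in 0.00913% of all. The forkhead core TGTTTAC, read as GTAAACA on the opposite strand, was in 0 of 7 and in 3.17% of all, and the estrogen response element GGTCANNNTGACC in 0 of 7 and in 0.0639% of all. The motif TATAAA, read as TTTATA on the opposite strand, was in 12.4% of all windows and in the Hal window alone of the 7, on the other strand 28 bases before the start. These counts say only which letters the windows hold.

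Gabrp encodes the pi subunit of the GABA-A receptor, a chloride channel opened by gamma-aminobutyric acid, and is known from epithelia outside the brain. The gene (ENSMUSG00000020159.8, mm10 chr11:33550781-33578959, reverse strand) had 0.116, 0.603 and 1.07 FPKM in ePRAoe 1 to 3 and 7.02, 3.71 and 6.21 FPKM in ePRBoe 1 to 3, against 85.2, 199 and 117 FPKM in Wnt7acre 1 to 3. The 3 genotypes formed 3 separate bands with no library of one inside another. The means were 0.595 ± 0.475 FPKM in ePRAoe, 5.65 ± 1.73 FPKM in ePRBoe and 134 ± 58.5 FPKM in Wnt7acre (SD, n = 3 each). In ePRAoe 0.445% of the control mean was left and in ePRBoe 4.23%, which are 224.5-fold and 23.7-fold lower levels. On the fitted log2(FPKM + 1) scale, which understates changes that reach down below 1 FPKM, the log2 fold change of Gabrp was -6.36 in ePRAoe (SE 0.22) and -4.26 in ePRBoe (SE 0.27). Both were the lowest of the 12347 genes that were fitted.

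Depp1 encodes a small intracellular regulator of autophagy that FOXO transcription factors induce, first described in human endometrial cells as a decidual protein induced by progesterone. The gene (ENSMUSG00000048489.12, chr6:116650609-116652794, forward strand) had 0, 2.02 and 21.1 FPKM in ePRAoe and 21.8, 3.87 and 22.9 FPKM in ePRBoe, against 197, 495 and 297 FPKM in Wnt7acre. ePRAoe 1 was listed at 0, while ePRAoe 3 stood beside ePRBoe 1 and 3, so the overexpressing genotypes overlapped each other and neither reached the control. Means were 7.70 ± 11.6 FPKM in ePRAoe, 16.2 ± 10.7 FPKM in ePRBoe and 330 ± 151 FPKM in Wnt7acre (SD, n = 3 each), so that 2.33% and 4.91% of the control level were left in ePRAoe and ePRBoe. The fitted log2 fold changes were -6.25 (SE 0.73) in ePRAoe and -4.24 (SE 0.90) in ePRBoe, the second lowest of either comparison. Without ePRAoe 1 or Wnt7acre 1 the ePRAoe value was -5.56, without ePRAoe 3 or Wnt7acre 2 it was -7.13, and without ePRBoe 2 the ePRBoe value was -3.49. Depp1 lies inside Rassf4, which is on the opposite strand. The strand setting of the counting is not given in the sources used here, so reads of these genes may not have been told apart.

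Olfm1, Chil1 and Pinlyp code for proteins with a secretion signal. Olfm1 makes olfactomedin 1, a glycoprotein best known from the nervous system and also studied in endometrium. Its levels (ENSMUSG00000026833.18, chr2:28192992-28230736, forward strand) were 6.08, 33.8 and 53.1 FPKM in ePRAoe and 46.0, 19.2 and 20.3 FPKM in ePRBoe, against 130.2, 636 and 294 FPKM in Wnt7acre. Olfm1 kept the largest share in ePRAoe of all 8 genes, 8.77% of the control mean, and 8.06% in ePRBoe. The ePRAoe and ePRBoe libraries were mixed in order, with means of 31.0 ± 23.6 FPKM in ePRAoe, 28.5 ± 15.2 FPKM in ePRBoe and 353 ± 258 FPKM in Wnt7acre (SD, n = 3 each). Its log2 fold changes were -3.62 in ePRAoe (SE 0.35) and -3.70 in ePRBoe (SE 0.43). Counted from the lowest log2 fold change, it ranked 38th in ePRAoe and 7th in ePRBoe.

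Chil1 makes chitinase 3-like 1, which binds chitin and related sugars but does not cut them. The gene (ENSMUSG00000064246.10, chr1:134182176-134190181, forward strand) had 0, 0.225 and 0.630 FPKM in ePRAoe and 2.30, 1.62 and 2.43 FPKM in ePRBoe, against 24.1, 118 and 30.2 FPKM in Wnt7acre. As for Gabrp, the genotypes lay in 3 separate bands. Its low values were whole multiples of 0.0450 FPKM within 0.0006 FPKM: ePRAoe 2 and 3 stood at 5 and 14 such steps and ePRBoe 1 to 3 at 51, 36 and 54. If each step is 1 read in every library, which would need libraries of equal depth, these levels rest on few reads. The means were 0.285 ± 0.319 FPKM in ePRAoe, 2.12 ± 0.434 FPKM in ePRBoe and 57.4 ± 52.5 FPKM in Wnt7acre (SD, n = 3 each), leaving 0.496% and 3.68% in ePRAoe and ePRBoe. The log2 fold changes were -5.17 (SE 0.31) and -3.58 (SE 0.38) in the same order of genotypes.

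Pinlyp encodes a phospholipase A2 inhibitor with LY6/PLAUR domains. Its levels (ENSMUSG00000011632.7, chr7:24541658-24546118, reverse strand) were 0.521, 1.15 and 2.92 FPKM in ePRAoe and 8.54, 1.35 and 3.02 FPKM in ePRBoe, against 10.6, 112 and 87.1 FPKM in Wnt7acre. Wnt7acre 1 lay far below the other controls and came close to ePRBoe 1, the narrowest gap to the control among the 8 genes. Means were 1.53 ± 1.24 FPKM in ePRAoe, 4.30 ± 3.76 FPKM in ePRBoe and 69.9 ± 52.8 FPKM in Wnt7acre (SD, n = 3 each), so 2.19% and 6.16% were left in ePRAoe and ePRBoe. The log2 fold changes were -4.38 in ePRAoe (SE 0.58) and -3.81 in ePRBoe (SE 0.72). Without ePRAoe 1 or Wnt7acre 1 the ePRAoe value was -5.11, and without Wnt7acre 3 the ePRBoe value was -2.83.

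Hal, Ttpa and Ggh act on nutrients. Hal is histidine ammonia-lyase, which opens the breakdown of histidine by turning it into urocanate. Its levels (ENSMUSG00000020017.14, chr10:93488768-93519304, forward strand) were 0.137, 0.027 and 0.602 FPKM in ePRAoe and 1.01, 0.219 and 0.685 FPKM in ePRBoe, against 12.7, 42.9 and 27.1 FPKM in Wnt7acre. ePRAoe 2 stood at a single step of 0.0274 FPKM, ePRAoe 1 at 5 steps and ePRAoe 3 at 22, while ePRBoe 1 to 3 stood at 37, 8 and 25. Steps were sought down to 0.02 FPKM only, so the lowest value could come out only as a single step. ePRAoe 3 lay among the ePRBoe libraries. With means of 0.255 ± 0.305 FPKM in ePRAoe, 0.639 ± 0.399 FPKM in ePRBoe and 27.6 ± 15.1 FPKM in Wnt7acre (SD, n = 3 each), 0.926% was left in ePRAoe and 2.32% in ePRBoe, the smallest share of the 8 genes in ePRBoe. The log2 fold changes were -4.38 in ePRAoe (SE 0.30) and -3.93 in ePRBoe (SE 0.36).

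Ttpa is the alpha-tocopherol transfer protein, the intracellular carrier of vitamin E. Its levels (ENSMUSG00000073988.13, chr4:20007938-20030785, forward strand) were 0.023, 0.604 and 1.83 FPKM in ePRAoe and 13.5, 2.37 and 4.64 FPKM in ePRBoe, against 27.2, 83.0 and 53.5 FPKM in Wnt7acre. Every ePRBoe library lay above every ePRAoe library and below every control, and ePRAoe 1 was at a single step of 0.0232 FPKM. As for Hal, the search could give no other count for that lowest value. Means of 0.820 ± 0.925 FPKM in ePRAoe, 6.84 ± 5.88 FPKM in ePRBoe and 54.6 ± 27.9 FPKM in Wnt7acre (SD, n = 3 each) left 1.5% in ePRAoe and 12.5% in ePRBoe. On the log2 scale the changes were -4.92 (SE 0.47) and -2.98 (SE 0.57).

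Ggh is gamma-glutamyl hydrolase, a lysosomal enzyme that trims the glutamate tail which keeps folate inside cells. Of the 8 genes it was the most abundant in the control, 45th of all 15158 genes by mean FPKM. Its levels (ENSMUSG00000073987.4, chr4:20042052-20066750, forward strand) were 6.08, 16.5 and 23.8 FPKM in ePRAoe and 146, 44.6 and 54.0 FPKM in ePRBoe, against 258, 673 and 366 FPKM in Wnt7acre. The 3 genotypes did not overlap, and in ePRBoe the transcript remained well measured. The means were 15.4 ± 8.90 FPKM in ePRAoe, 81.7 ± 56.3 FPKM in ePRBoe and 432 ± 216 FPKM in Wnt7acre (SD, n = 3 each). That left 3.57% in ePRAoe and 18.9% in ePRBoe, the largest share of any of the 8 genes in ePRBoe, with log2 fold changes of -4.78 (SE 0.41) and -2.55 (SE 0.51).

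**Figure D1:**
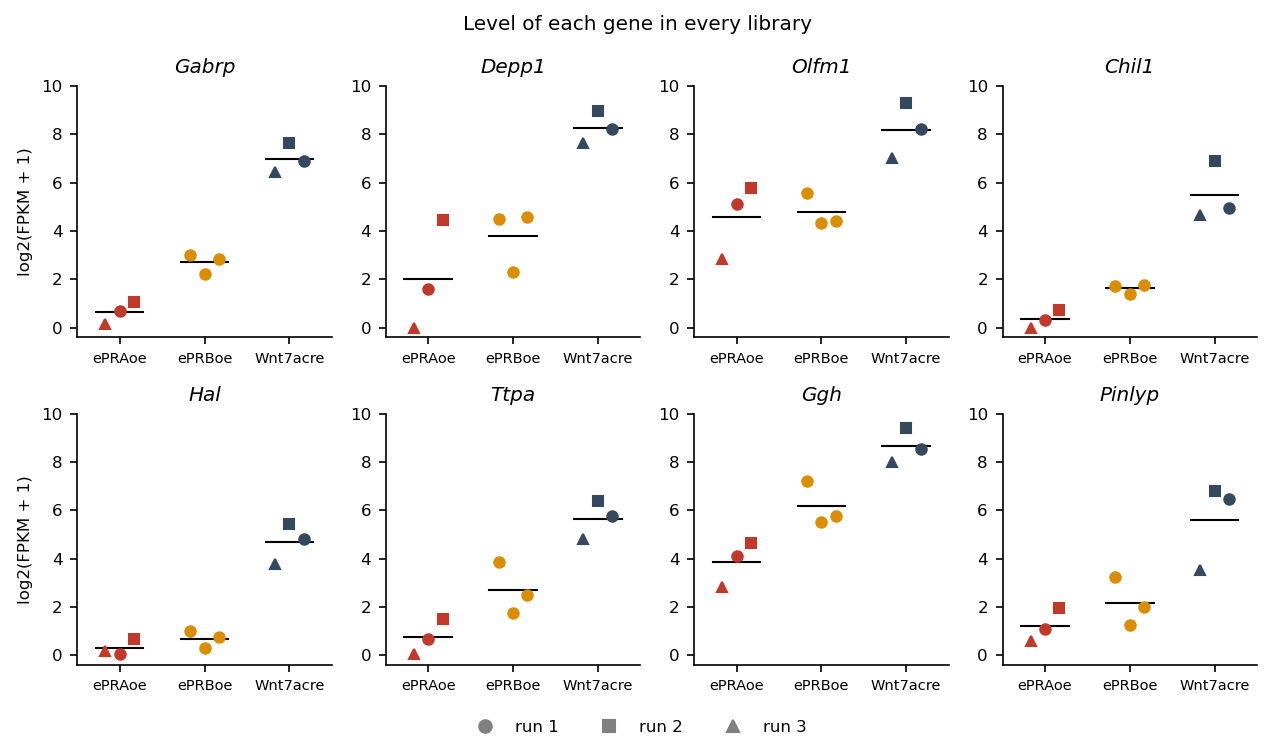
Level of each of the 8 genes as log2(FPKM + 1) in every library, with ePRAoe, ePRBoe and Wnt7acre from left to right, the marker shape showing the sequencing run and the horizontal bar the mean of 3 libraries. In every panel all ePRAoe and ePRBoe points lie below all Wnt7acre points, and for Gabrp, Chil1, Ttpa and Ggh the ePRBoe points also lie above all ePRAoe points.

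As a group, the 8 genes took 13.0, 54.9 and 105 FPKM of ePRAoe 1 to 3 and 246.7, 76.9 and 114 FPKM of ePRBoe 1 to 3, against 745, 2358 and 1272 FPKM of Wnt7acre 1 to 3. Of the 8, 8 had an ePRAoe mean under 10% of the control mean and 6 had such an ePRBoe mean, all except Ttpa and Ggh. Among all 6048 genes with a control mean of at least 10 FPKM, 1.32% were under 10% in ePRAoe and 0.496% in ePRBoe. The rule chose the 8 from these very falls, so nothing is read from the excess over those shares. Under 1% of the control was left for 3 of the 8 in ePRAoe (Gabrp, Chil1 and Hal) and for 0 in ePRBoe. Single libraries ran between a listed 0 and 15.0% of the control mean in ePRAoe, and between 0.795% and 33.9% in ePRBoe. In all 8 genes, no ePRAoe or ePRBoe library reached the lowest control. Such separation with the control on top held for 16.2% of all tested genes in ePRAoe and 16.3% in ePRBoe. Both comparisons use the same 3 Wnt7acre libraries. In tissue samples of this kind, fewer cells of a type and less RNA per cell cannot be told apart.

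The loss was present in each sequencing run. The log2 difference of ePRAoe from the control of the same run spanned -6.63 (Depp1) to -3.08 (Olfm1) in run 1, -6.59 (Gabrp) to -3.56 (Olfm1) in run 2 and -7.63 (Depp1) to -2.93 (Pinlyp) in run 3, each with 1 library a genotype. In run 1, the single run with ePRBoe, the difference of ePRBoe from the control spanned -4.43 (Depp1) to -2.36 (Ggh).

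**Figure D2:**
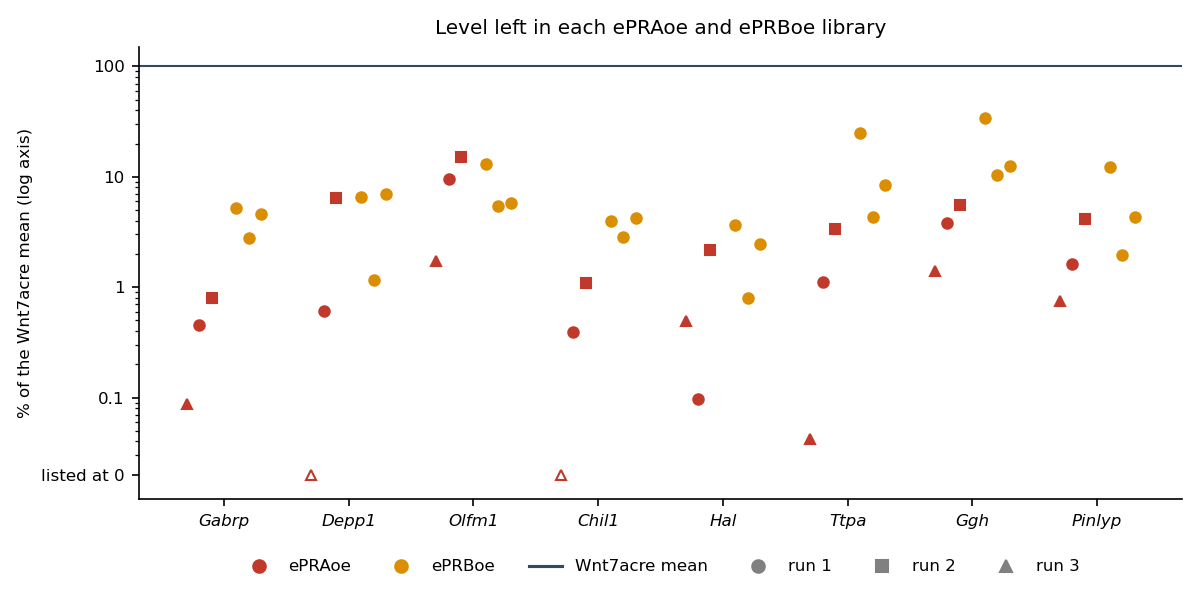
Level left in each ePRAoe and ePRBoe library as a percentage of the mean of the 3 Wnt7acre libraries, on a log axis, with the marker shape showing the sequencing run and open triangles at the bottom for values listed at 0. Depp1 and Chil1 reach a listed 0 in ePRAoe 1, and the highest points are Ggh at 33.9% and Ttpa at 24.7% in ePRBoe 1.

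Whether isoform A and isoform B took these genes down to the same depth was tested with limma across the 12347 genes that reached 1 FPKM in 3 or more libraries, with a term for genotype and one for sequencing run. All 8 genes passed that filter, which their control libraries alone satisfied. Gabrp was higher in ePRBoe than in ePRAoe, 9.49-fold by the means. Its log2 difference was 2.09 (SE 0.27, 95% interval 1.47 to 2.71), with an adjusted p of 0.0369 over the 12347 genes in limma, and it was higher in 3 of 3 ePRBoe libraries than in any ePRAoe library. Of the 8 genes this 1 passed, against a background of 0.324% of all tested genes. Because the 8 were picked from falls in each genotype, a gene taken from one genotype's list tends to be lower there, and the choice can tilt this comparison. Among the 195 tested genes with a log2 fold change of -2 or less in ePRAoe over Wnt7acre, 2 (1.03%) passed as higher in ePRBoe. The Gabrp call was lost without ePRAoe 2, ePRAoe 3, ePRBoe 1, ePRBoe 2, ePRBoe 3, Wnt7acre 2 or Wnt7acre 3 (limma, adjusted p = 0.0692 to 0.500), with differences of 1.94 to 2.32. Immune cell markers moved in the same comparison: 6 of the 14 passed as higher in ePRBoe than in ePRAoe by limma, with a median log2 difference of 1.68 against 0.15 for all tested genes. That count was 10 without ePRAoe 1 or Wnt7acre 1, 4 without ePRAoe 3 or Wnt7acre 2 and 1 without Wnt7acre 3, and no gene of the table was called without ePRAoe 2, ePRBoe 1 or ePRBoe 2. Stroma, endothelium and smooth muscle markers had median log2 differences of ePRBoe over ePRAoe of 0.71, 0.96 and 1.055, and 0 of them passed by limma. At an unadjusted p under 0.05 by limma, 8 of 18, 2 of 6 and 1 of 4 were higher in ePRBoe. The luminal epithelium and gland medians were 0.14 and 0.19. The part of immune cells and of these other cell types in the Gabrp difference was not tested.

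The other 7 did not pass, and their intervals leave room for large differences. The log2(FPKM + 1) scale understates differences near or below 1 FPKM, so these intervals do not bound the linear folds. With 0.1 FPKM added in place of 1, ePRBoe over ePRAoe was 3.19 for Gabrp, 3.11 for Chil1, 3.065 for Ttpa and 2.775 for Depp1. It was 2.31 for Ggh, 1.73 for Hal, 0.96 for Pinlyp and -0.08 for Olfm1. The values below are again with 1 FPKM added. Ggh had a log2 difference of ePRBoe over ePRAoe of 2.24 (95% interval 1.06 to 3.41, limma adjusted p = 0.102) and stood 5.29-fold higher in ePRBoe by the means. Ttpa had 1.94 (0.61 to 3.27, limma adjusted p = 0.152), 8.34-fold by the means. Chil1 had 1.59 (0.71 to 2.46, limma adjusted p = 0.107), 7.42-fold. The intervals of these 3 leave out 0 before adjustment, and their ePRBoe libraries all lay above their ePRAoe libraries. With Gabrp, that makes 4 of 8 genes with all ePRBoe values on top, where 16.8% of all tested genes show it. The 8 were picked for low values in ePRAoe or ePRBoe, which can tilt this share, so nothing is read from the excess.

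Depp1 had the widest interval, 2.01 (-0.07 to 4.09, limma adjusted p = 0.282), and its ePRAoe libraries ran from a listed 0 to 21.1 FPKM. Pinlyp had 0.58 (-1.09 to 2.24, adjusted p = 0.691) and Hal 0.45 (-0.40 to 1.29, adjusted p = 0.527), both in limma. Olfm1 had -0.09 (-1.08 to 0.91, limma adjusted p = 0.929), the only one of the 8 with a lower mean in ePRBoe, and its sign turned in 5 of the 18 alternative fits. A higher mean in ePRBoe was found for 7 of the 8, against 61.4% of all tested genes. The choice of the 8 can tilt this share as well, so nothing is read from it. Within run 1 the ePRBoe mean minus the ePRAoe library was 2.02 for Gabrp, 2.20 for Depp1, 2.04 for Ggh, 2.02 for Ttpa and 1.34 for Chil1 on the log2 scale. In that run Pinlyp differed by 1.06, Hal by 0.64 and Olfm1 by -0.35.

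**Figure D3:**
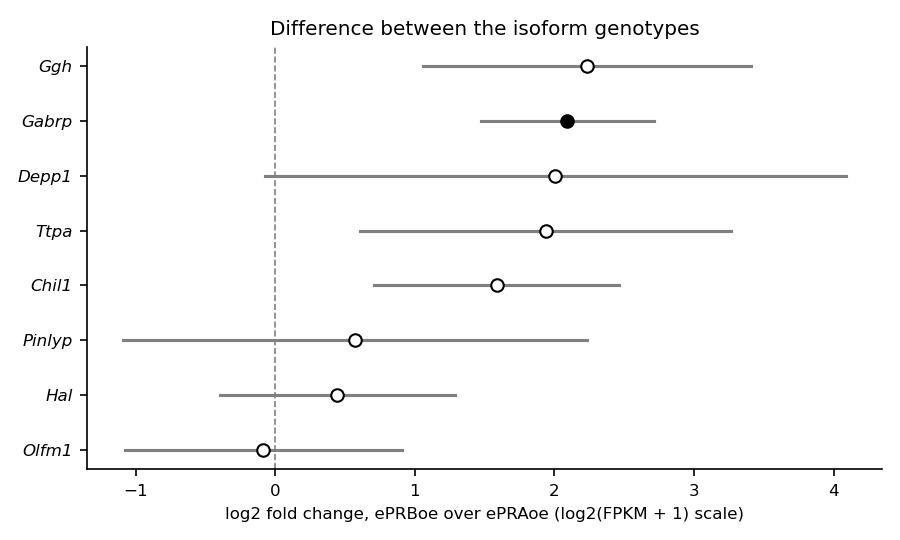
Log2 fold change of ePRBoe over ePRAoe for each of the 8 genes on the log2(FPKM + 1) scale, with lines for 95% intervals from limma and a filled point for an adjusted p under 0.05. Gabrp alone is filled, the intervals of Ggh, Ttpa and Chil1 lie right of 0, and those of Depp1, Pinlyp, Hal and Olfm1 cross it.

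The 8 genes ranked the libraries within a genotype in nearly the same order. The share of all tested genes with that order is not given here, so the order is not read as particular to the 8. In ePRAoe, replicate 3 was the highest library for 8 of 8 genes and replicate 1 the lowest for 7, the exception being Hal, which was lowest in ePRAoe 2. ePRBoe 2 was the lowest ePRBoe library for all 8, while ePRBoe 1 was highest for 6 and ePRBoe 3 for Depp1 and Chil1. Among the controls, Wnt7acre 2 was the highest for all 8 and Wnt7acre 1 the lowest for all 8. The highest ePRAoe library and the highest control shared run 2, and the lowest ePRAoe library and the lowest control shared run 3. Within ePRBoe all libraries were of run 1. Over deviations from the genotype means, the 28 pairs among the 8 genes had a Pearson correlation of 0.53 to 0.951 (median 0.805) over the 9 libraries, which all pairs share together with their depth. The controls also differed in the marker lists given below. In Wnt7acre 1 to 3, gland markers summed to 288, 77.9 and 207.5 FPKM and immune cell markers to 417.5, 237 and 201 FPKM. Calb1 alone made up 245, 30.0 and 188 FPKM of the gland sums, and the other gland markers did not share its order. Spink1 (24.1, 41.2 and 14.8 FPKM) and Prss29 (1.87, 4.12 and 1.09 FPKM) were highest in Wnt7acre 2. Sox9 (5.48, 0.238 and 2.13 FPKM) and Cxcl15 (8.47, 0.036 and 0 FPKM) were highest in Wnt7acre 1. Stroma markers summed to 124, 143 and 168 FPKM, and luminal epithelium markers to 2888, 2866 and 2576 FPKM. Olfm4, an olfactomedin gene, stood at 74.3 FPKM in Wnt7acre 1 and at 0 in the other controls. The parts of the run and of tissue make-up in this shared order were not tested.

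Markers of the captured tissue kept overlapping sums in the 3 genotypes. Luminal epithelium markers (20 genes, keratins, claudins and Epcam among them) summed to 1990 to 2764 FPKM in ePRAoe and 2436 to 2701 FPKM in ePRBoe, against 2576 to 2888 FPKM in Wnt7acre. By limma 3 of the 20 rose and 5 fell in ePRAoe, and 1 rose and 1 fell in ePRBoe, against 7.2% higher and 8.98% lower of all tested genes in ePRAoe and 6.41% and 2.48% in ePRBoe. The 5 falls in ePRAoe were 2 without ePRAoe 2, ePRAoe 3, Wnt7acre 2 or Wnt7acre 3, and the 3 rises were 1 without ePRAoe 2 or Wnt7acre 3 and were lost without ePRAoe 3 or Wnt7acre 2. In ePRBoe the rise was lost without ePRAoe 2, ePRBoe 3 or Wnt7acre 3 and the fall without ePRBoe 2, ePRBoe 3 or Wnt7acre 3. Stroma markers (18 genes) summed to 290 to 476 FPKM in ePRAoe and 504 to 653 FPKM in ePRBoe, against 124 to 168 FPKM in Wnt7acre, and 12 and 15 of them rose in ePRAoe and ePRBoe. The counts were at least 8 and 10 with any library left out. Immune cell markers (14 genes) summed to 133 to 174 FPKM in ePRAoe and 407 to 482 FPKM in ePRBoe, against 201 to 418 FPKM in Wnt7acre. Of the 14, 4 fell in ePRAoe, while 6 rose in ePRBoe (3 without ePRBoe 2 and 1 without Wnt7acre 3). Gland markers (9 genes) gave 296 to 568 FPKM in ePRAoe and 240 to 302 FPKM in ePRBoe, against 77.9 to 288 FPKM in Wnt7acre. Most of that sum was Calb1, at 292 to 558 FPKM in ePRAoe and 226 to 287 FPKM in ePRBoe, against 30.0 to 245 FPKM in Wnt7acre. Of the 5 gland markers tested, Calb1 and Aldh1a1 rose in ePRAoe, a count of 2 that became 1 without ePRAoe 2, ePRAoe 3, Wnt7acre 2, Wnt7acre 3 or any ePRBoe library, while Spink1 fell by 3.97 on the log2 scale (limma, adjusted p = 0.0058). Spink1 averaged 0.961 ± 1.51 FPKM in ePRAoe and 12.7 ± 10.2 FPKM in ePRBoe, against 26.7 ± 13.4 FPKM in Wnt7acre (SD, n = 3 each). Endothelium markers (9 genes) gave 14.8 to 31.9 FPKM in ePRAoe and 48.7 to 68.3 FPKM in ePRBoe, against 13.1 to 19.9 FPKM in Wnt7acre. Smooth muscle markers (6 genes) gave 16.7 to 30.2 FPKM in ePRAoe and 38.0 to 119 FPKM in ePRBoe, against 11.7 to 21.5 FPKM in Wnt7acre. Of these lists, Prss28 of the gland list was listed at 0 throughout ePRAoe, and no other marker in the table was at 0 in a whole genotype. The part of stroma and other cell types in the levels of the 8 genes was not tested.

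Several neighbours of the 8 genes were lower as well. Within 250 kb lay 30 other tested genes, of which 9 fell and 1 rose in ePRAoe by limma, where 8.98% of all tested genes fell. In ePRBoe 6 of the 30 fell and 1 rose, where 2.48% of all tested genes fell. The median log2 fold change of the 30 was -0.36 in ePRAoe and -0.06 in ePRBoe, and that of all tested genes -0.03 and 0.10. The 9 falls in ePRAoe were 5 without ePRAoe 2 and 4 without Wnt7acre 3. The 6 falls in ePRBoe were 0 without ePRAoe 2, ePRBoe 2 or Wnt7acre 3, 1 without ePRBoe 3 and 2 without ePRBoe 1, and 3 when values were rescaled to TPM.

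Ttpa and Ggh lie 11.3 kb apart on chromosome 4, and the tested gene next to them, Atp6v0d2, 85.3 kb from Ttpa, was low with them. Atp6v0d2 encodes a membrane subunit of the vacuolar proton pump. It averaged 45.1 ± 49.1 FPKM in ePRAoe and 85.3 ± 23.4 FPKM in ePRBoe, against 530 ± 149 FPKM in Wnt7acre (SD, n = 3 each). Atp6v0d2 fell by 4.33 on the log2 scale in ePRAoe (limma, adjusted p = 0.00383), and the call held with each library left out. In ePRBoe it fell by 2.86 (adjusted p = 0.0417), a call lost without ePRAoe 2, ePRBoe 1, ePRBoe 2, ePRBoe 3 or Wnt7acre 3 (adjusted p = 0.0716 to 0.214). The next tested gene on the other side of Ggh, Ccnc, lies 1661 kb away and did not pass (log2 fold change -0.02 in ePRAoe, limma adjusted p = 0.953).

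Beside Hal the picture was mixed. Amdhd1, 4.03 kb away, encodes a later enzyme of the same histidine breakdown route. It had 6.0 ± 3.27 FPKM in ePRAoe and 8.08 ± 1.62 FPKM in ePRBoe, against 19.4 ± 2.29 FPKM in Wnt7acre (SD, n = 3 each). The fall of 1.67 in ePRAoe passed in limma (adjusted p = 0.00662) and did so with each library left out. In ePRBoe Amdhd1 fell by 1.41 (adjusted p = 0.0348), a call lost without ePRAoe 2, ePRBoe 1, ePRBoe 2, ePRBoe 3 or Wnt7acre 3 (adjusted p = 0.0535 to 0.179). Lta4h, 3.89 kb away on the other side and the maker of leukotriene B4, did not pass (-0.12 in ePRAoe and 0.23 in ePRBoe, adjusted p = 0.581 and 0.418). Ntn4, a secreted netrin 121.4 kb away, fell by 2.56 in ePRAoe (limma, adjusted p = 0.00366, held with each library left out) while in ePRBoe its log2 fold change of -1.15 missed the threshold (adjusted p = 0.116).

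Around Pinlyp, 4 of 10 neighbours fell in ePRAoe. Ethe1, a mitochondrial sulfur dioxygenase, had 2.30 ± 0.623 FPKM in ePRAoe and 5.20 ± 0.946 FPKM in ePRBoe, against 20.5 ± 11.8 FPKM in Wnt7acre (SD, n = 3 each). It fell by 2.56 in ePRAoe (limma, adjusted p = 0.00208, held with each library left out) and by 1.58 in ePRBoe (adjusted p = 0.0226), where it was lost without ePRAoe 2, ePRBoe 2, ePRBoe 3 or Wnt7acre 3 (0.0693 to 0.214). Plaur, the urokinase receptor, carries LY6/PLAUR domains as Pinlyp does. It averaged 0.336 ± 0.458 FPKM in ePRAoe and 0.739 ± 0.248 FPKM in ePRBoe, against 5.06 ± 3.55 FPKM in Wnt7acre (SD, n = 3 each), and fell by 2.07 and 1.51 (limma, adjusted p = 0.00219 and 0.0171). Plaur passed the expression filter through its control libraries alone and was not tested with any 1 of them left out, and the ePRBoe call was also lost without ePRAoe 2 (0.062) or ePRBoe 2 (0.0557). Irgq, an immunity-related GTPase family gene, and Xrcc1, a DNA repair scaffold that begins 170 bases from Pinlyp on the opposite strand, fell by 1.45 and 1.35 in ePRAoe (limma, adjusted p = 0.0137 and 0.0197). Both calls were lost without ePRAoe 2, ePRAoe 3, Wnt7acre 2 or Wnt7acre 3 (adjusted p = 0.0709 to 0.0932). Unlike Depp1 and Rassf4, the annotated spans of Pinlyp and Xrcc1 do not overlap. With no strand setting given, reads that run past these spans may still not have been told apart.

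Zfp422, a zinc finger gene 21.6 kb from Depp1, fell by 0.89 in ePRAoe and by 1.07 in ePRBoe (limma, adjusted p = 0.0213 and 0.0337). The first call was lost without ePRAoe 1, ePRAoe 2, Wnt7acre 1 or Wnt7acre 3 (adjusted p = 0.0502 to 0.0819) and the second without ePRAoe 2, ePRBoe 1, ePRBoe 2, ePRBoe 3 or Wnt7acre 3 (0.0655 to 0.179). Rassf4, the gene that surrounds Depp1, had 10.6 ± 14.1 FPKM in ePRAoe and 10.6 ± 5.51 FPKM in ePRBoe, against 36.2 ± 7.05 FPKM in Wnt7acre (SD, n = 3 each), and did not pass (log2 fold change -2.43 in ePRAoe, limma adjusted p = 0.0555). Near Gabrp, Ranbp17 fell by 0.80 and 0.91 (adjusted p = 0.0261 and 0.0493), calls lost without several libraries, both without ePRAoe 2, ePRAoe 3, ePRBoe 1, ePRBoe 2, Wnt7acre 2 or Wnt7acre 3 and the second also without ePRBoe 3 (limma, adjusted p = 0.0503 to 0.242). Around Chil1 the lowest adjusted p of the 5 neighbours was 0.0772 in ePRAoe and 0.134 in ePRBoe (limma). Near Olfm1 the fibrillar collagen gene Col5a1 rose by 1.09 and 1.65 (limma, adjusted p = 0.00989 and 0.00902), a gene that stroma also expresses. The Col5a1 call in ePRAoe was lost without ePRAoe 3 or Wnt7acre 2 (0.0547 and 0.0548), and that in ePRBoe without Wnt7acre 3 (0.0646).

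**Figure D4:**
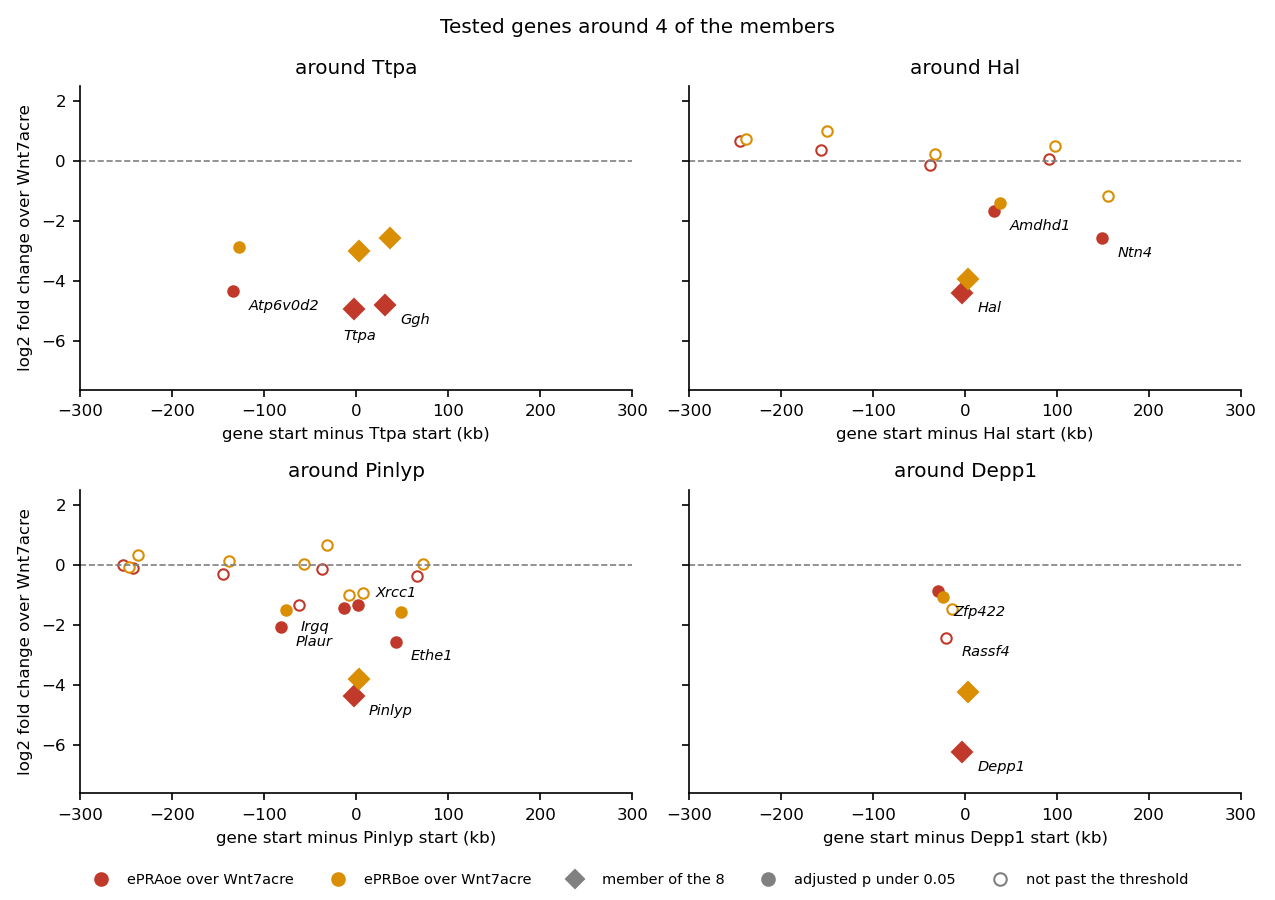
Log2 fold change of ePRAoe and of ePRBoe over Wnt7acre for the tested genes around Ttpa, Hal, Pinlyp and Depp1, plotted by the distance of the gene start from the start of the named gene in kb, with diamonds for genes of the 8, filled circles for neighbours with an adjusted p under 0.05 and open circles for other neighbours (points are set 3 kb left of the position for ePRAoe and right for ePRBoe). Atp6v0d2 stands at -4.33 and -2.86 near Ttpa and Ggh, and the circles around Hal and Pinlyp spread from -2.56 (Ntn4) to 0.99 (Gm17745).

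Taken over all lists, the other genes of the pathways that the 8 belong to moved in both directions. That did not hold in every list: no gene passed as higher in the chitinase, vitamin E or LY6/PLAUR lists. Of all tested genes 7.2% rose and 8.98% fell in ePRAoe by limma, and 6.41% and 2.48% in ePRBoe. The counts of each list are to be set beside these shares. Of the GABA list, 3 genes besides Gabrp were tested. Abat, the enzyme that breaks down GABA, rose to 2.99 ± 0.771 FPKM in ePRAoe and 4.47 ± 0.395 FPKM in ePRBoe, against 0.618 ± 0.271 FPKM in Wnt7acre (SD, n = 3 each; limma log2 fold change 1.30 and 1.64, adjusted p = 0.00761 and 0.012). The ePRBoe call for Abat was lost without ePRAoe 2 (0.0548) or Wnt7acre 3 (0.0797). In Wnt7acre 1 to 3 Abat stood at 0.623, 0.344 and 0.886 FPKM, all under 1 FPKM. It thus passed the filter through ePRAoe and ePRBoe libraries alone, and was not tested with a mean of at least 5 FPKM. Gabbr1, a subunit of the unrelated metabotropic GABA-B receptor, fell by 1.11 in ePRAoe (limma, adjusted p = 0.00538). GABA-A receptors are assembled from several subunits. The 7 other subunit genes in the table were all below the filter, with means of at most 0.415 FPKM in any genotype.

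Among 18 genes of the FOXO list other than Depp1, 2 rose and 5 fell in ePRAoe, and 1 rose and 2 fell in ePRBoe (limma). Foxo1, one of the FOXO factors themselves, averaged 36.3 ± 12.3 FPKM in ePRAoe and 40.7 ± 5.89 FPKM in ePRBoe, against 94.0 ± 24.0 FPKM in Wnt7acre (SD, n = 3 each). It fell by 1.37 in ePRAoe (adjusted p = 0.00219) and by 1.00 in ePRBoe (adjusted p = 0.016, lost without ePRBoe 2, ePRBoe 3 or Wnt7acre 3, 0.0579 to 0.165). Pik3ip1, an inhibitor of phosphoinositide 3-kinase, whose signalling keeps FOXO factors out of the nucleus, fell by 0.92 and 0.98 (limma, adjusted p = 0.0132 and 0.0319). Its ePRAoe call was lost without ePRAoe 2 or Wnt7acre 3 (0.0674 and 0.068) and its ePRBoe call without ePRAoe 2, any ePRBoe library or Wnt7acre 3 (0.058 to 0.2). Sesn1, a stress-induced sestrin, rose by 1.11 and 1.61 (limma, adjusted p = 0.00765 and 0.00874) with each library left out, so the list moved both ways. The 2 rises in ePRAoe were 1 without ePRAoe 2, ePRAoe 3, Wnt7acre 2 or Wnt7acre 3, and the rise in ePRBoe became 2 without ePRAoe 1 or Wnt7acre 1. The 5 falls in ePRAoe were 2 without ePRAoe 2, ePRAoe 3, Wnt7acre 2 or Wnt7acre 3 and 3 without ePRBoe 1, and the 2 falls in ePRBoe were 0 without ePRBoe 2, ePRBoe 3 or Wnt7acre 3 and 1 without ePRAoe 2 or ePRBoe 1. The median of the 18 genes was -0.34 in ePRAoe and -0.10 in ePRBoe.

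Of 7 olfactomedin-domain genes besides Olfm1, 2 rose and 2 fell in ePRAoe, and 3 rose and 1 fell in ePRBoe (limma). The 2 rises in ePRAoe were lost without ePRAoe 3 or Wnt7acre 2 and were 1 without any other library, and the 2 falls were 1 without ePRAoe 2, ePRBoe 1 or Wnt7acre 3. The 3 rises in ePRBoe were 1 without ePRAoe 2 or Wnt7acre 3. Olfml2b fell by 2.07 and 1.76 (adjusted p = 0.00543 and 0.0283). Its ePRBoe call was lost without ePRAoe 2, any ePRBoe library, Wnt7acre 2 or Wnt7acre 3 (0.0518 to 0.275). Olfml3, a secreted matrix protein, rose by 1.19 and 2.19 (limma, adjusted p = 0.0234 and 0.0103), a call lost in ePRAoe without ePRAoe 2, ePRAoe 3, Wnt7acre 2 or Wnt7acre 3 (0.0717 to 0.0976) and in ePRBoe without ePRAoe 2 or Wnt7acre 3 (0.0523 and 0.076). Adgrl1, an adhesion receptor of the latrophilin family, rose by 1.93 in ePRBoe (limma, adjusted p = 0.0103) with each library left out, while its call in ePRAoe (adjusted p = 0.0392) was kept without ePRAoe 2 or Wnt7acre 3 and lost without each of the other libraries (0.058 to 0.176). In the chitinase family 0 of 4 other genes passed in either genotype by limma, and at an unadjusted p under 0.05 there was 1 in each genotype. Chit1, the active chitinase that neighbours Chil1, stood at 1.31 ± 1.89 FPKM in ePRAoe and 0.698 ± 0.321 FPKM in ePRBoe, against 2.55 ± 2.56 FPKM in Wnt7acre (SD, n = 3 each).

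In the histidine list, 1 of 7 genes besides Hal fell in either genotype, which was Amdhd1 both times, and Hdc rose in ePRAoe. Hdc, which turns histidine into histamine, averaged 641 ± 128 FPKM in ePRAoe and 544 ± 67.0 FPKM in ePRBoe, against 333 ± 131 FPKM in Wnt7acre (SD, n = 3 each; log2 fold change 1.00 in ePRAoe, limma adjusted p = 0.0308). The Hdc call was lost without ePRAoe 2, ePRAoe 3, ePRBoe 1, ePRBoe 2, Wnt7acre 2 or Wnt7acre 3 (0.0526 to 0.154). In the list of vitamin E and related lipid carriers, 2 of 6 genes besides Ttpa fell in ePRAoe and 1 in ePRBoe. Abca1, which exports cholesterol and vitamin E from cells, fell by 1.41 and 1.26 (limma, adjusted p = 0.00389 and 0.0162), the second call lost without ePRAoe 2, ePRBoe 2 or Wnt7acre 3 (0.0546 to 0.171). Scarb1, a receptor that takes up lipids from lipoproteins, fell by 2.21 in ePRAoe (adjusted p = 0.0173), a call lost without ePRAoe 2, ePRAoe 3, Wnt7acre 2 or Wnt7acre 3 (0.085 to 0.105).

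In the folate list more genes passed as higher than as lower in ePRAoe. Of 18 other genes 4 rose and 1 fell in ePRAoe, and 0 passed in ePRBoe, where 3 rose at an unadjusted p under 0.05 (limma). Mthfd2, the mitochondrial folate enzyme, had 24.4 ± 11.7 FPKM in ePRAoe and 13.2 ± 3.01 FPKM in ePRBoe, against 7.27 ± 3.99 FPKM in Wnt7acre (SD, n = 3 each; log2 fold change 1.61 in ePRAoe, limma adjusted p = 0.00453). Tyms, thymidylate synthase, rose by 1.21 in ePRAoe (limma, adjusted p = 0.00526) and like Mthfd2 did so with each library left out. The 4 rises were 2 without ePRAoe 2, ePRAoe 3, Wnt7acre 2 or Wnt7acre 3, and the fall was lost without any of these or without ePRBoe 2. Atic, an enzyme of purine synthesis, and Slc46a1, the proton-coupled folate transporter, rose by 1.05 and 0.92 in ePRAoe (limma, adjusted p = 0.0219 and 0.0257), calls lost without ePRAoe 2, ePRAoe 3, Wnt7acre 2 or Wnt7acre 3 (0.106 to 0.136). Of 9 LY6/PLAUR genes besides Pinlyp, 3 fell in ePRAoe and 1, Plaur, in ePRBoe. Plaur is also among the 3, and it passed the filter through its control libraries alone. Ly6a, a surface antigen, and Ly6e fell by 3.02 and 1.10 in ePRAoe (limma, adjusted p = 0.0209 and 0.0214), calls lost without the same 4 libraries (0.097 to 0.114). The 3 falls were 1 without ePRAoe 2 or ePRAoe 3 and 0 without Wnt7acre 2 or Wnt7acre 3.

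Among 8924 other tested genes that averaged 5 FPKM or more in some genotype, the one most like the mean pattern of the 8 over the 9 libraries was Agtr2, the type 2 angiotensin receptor (Pearson r = 0.995). Agtr2 had 0.582 ± 0.452 FPKM in ePRAoe and 2.53 ± 1.82 FPKM in ePRBoe, against 35.3 ± 22.5 FPKM in Wnt7acre (SD, n = 3 each). Wnt7b, Gstm5, Xbp1, Igfbp3 and Slc35g1 followed, the last of them at 0.988. Xbp1, a transcription factor of the secretory pathway, was the gene most like Gabrp (r = 0.992) and stood at 37.7 ± 6.77 FPKM in ePRAoe and 60.2 ± 6.57 FPKM in ePRBoe, against 214 ± 72.2 FPKM in Wnt7acre (SD, n = 3 each). The level of Xbp1 left in ePRAoe and ePRBoe was thus a larger share of its control than that of Gabrp. The gene most like Depp1 was Ttc39b, and Gpam was most like Olfm1. Agtr2 was most like Ttpa, Ccdc125 most like Ggh, Ifit1bl1 most like Hal, Xbp1 most like Chil1 and Ifitm2 most like Pinlyp. All of these correlations are across libraries of 3 genotypes that share depth and run, and they describe the pattern without a test.

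**Figure D5:**
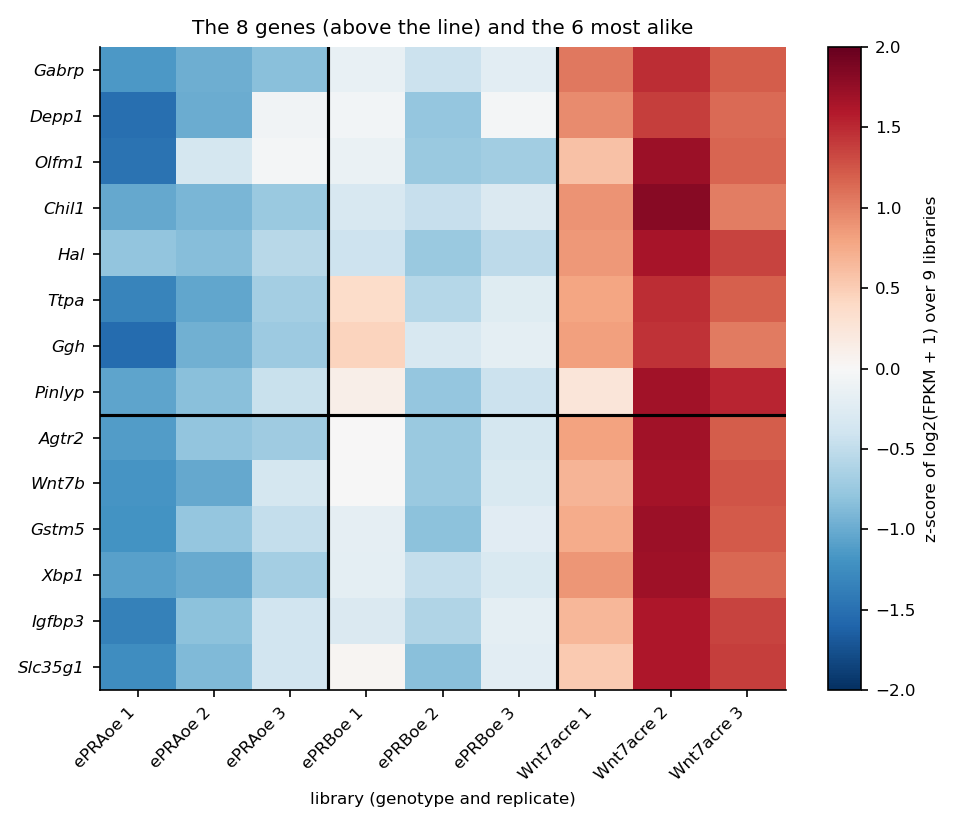
z-scores of log2(FPKM + 1) over the 9 libraries for the 8 genes (above the line) and the 6 genes most like their mean (below it), with ePRAoe, ePRBoe and Wnt7acre libraries from left to right. Every row is highest in Wnt7acre 2, and ePRAoe 1 is the lowest library in every row except that of Hal.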

How the data were processed

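Laser-captured luminal epithelium was profiled in 9 libraries of 3 genotypes. RNA was extracted with Trizol and RNeasy columns and sequenced on Illumina instruments, per the labels' protocols. The deposited table gives FPKM for 15158 gene symbols. The submitters' processing notes name the build mm10, STAR 2.5.2b for alignment, featureCounts 1.5.0-p1 for counting, edgeR 3.28.0 and limma 3.42.2. Annotation, strand setting, gene lengths, read counts and depths were not given in the sources used here, so no counting interval was computed. The 8 genes, the pathway and marker lists and the rule for named genes were chosen with earlier results of these data known.

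From the deposited FPKM, log2(FPKM + 1) was tested with limma 3.58.1 in R 4.3.3 over all 9 libraries and 12347 genes (1 FPKM or more in 3 or more libraries), with terms for genotype and sequencing run, an expression trend, two-sided tests and Benjamini-Hochberg adjustment with a threshold of 0.05. The fit had 4 residual degrees of freedom. Means, shares left and linear folds are on FPKM. Positions came from GENCODE M21 (14944 symbols found once) and promoter windows from RefSeq. Besides the 8 genes, Pgr and Wnt7a, the named genes were up to 4 called genes of each pathway list with the largest moderated t, the 2 most abundant where fewer than 2 passed, tested neighbours within 250 kb, and the genes most correlated with each of the 8 (3 each) or with their mean (10). Not every gene that this rule picks is printed. Simulated data with known changes were used to test the fit. Alternatives changed the pseudocount, filter, run term, replicate block, scaling, trend and each library.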

Additional observations from a re-analysis of the deposited data

How the results depend on the processing

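The falls of the 8 genes kept their direction in all 18 alternatives: 136 of 144 values in ePRAoe over Wnt7acre and 142 of 144 in ePRBoe over Wnt7acre moved by less than the replicate spread, and the others were deeper with 0.1 FPKM in place of 1 or after rescaling to TPM. Not every alternative could move a value: the filters and the trend leave each log2 fold change as it was. In ePRAoe over Wnt7acre the same held for the run term, the replicate block and each ePRBoe library left out. These counts therefore overstate how far the falls were put to the test. With any 1 library left out, the linear fold on the log2(FPKM + 1) scale moved by less than 1.5 times for 6 of the genes, and by more for Depp1 (-7.13 to -5.56 in ePRAoe and -4.68 to -3.49 in ePRBoe on the log2 scale) and Pinlyp (-5.11 to -3.89 and -4.35 to -2.83). The median share left was 1.39% in ePRAoe and 6.22% in ePRBoe against the control of the same run, and 1.64% and 6.22% against the control median. Between ePRBoe and ePRAoe, 1 of the 8 genes was called. That count was 2 (Gabrp and Chil1) with 0.1 FPKM added or with TPM, and 0 by limma with no filter, no run term, quantile normalization or the replicate block, each with 4 of 8 at an unadjusted p under 0.05. It was 0 to 1 with each library left out. The difference turned to 0.20 for Olfm1 without the run term and with the replicate block, to 0.45, 0.13 and 0.09 for Olfm1 without ePRAoe 2, ePRBoe 2 and ePRBoe 3, and to -0.40 for Pinlyp without ePRAoe 2. With each library left out it ran from -0.48 to 0.45 for Olfm1 and from -0.40 to 1.06 for Pinlyp. The cause was not tested.

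Over all genes, ePRAoe over Wnt7acre gave 1998 calls, 1113 with the replicate block and 723 to 2705 with each library left out. For ePRBoe over Wnt7acre there were 1098 calls (792 higher, 306 lower), 653 with a mean of at least 5 FPKM, 1786 without the run term and 231 to 1604 with each library left out. Quantile normalization (568 higher, 451 lower) and median-of-ratios factors (619 and 479) moved that split, and the all-gene median of 0.10 became -0.03 under both. For ePRBoe over ePRAoe there were 40 calls, 19 with no filter, 7 without the run term, 4 with the replicate block, 15 with quantile normalization, 22 with median-of-ratios factors, 25 with TPM and 0 to 576 with each library left out. The limma counts of 0 came without ePRAoe 2, ePRBoe 1 or ePRBoe 2, with 890, 1430 and 1624 genes at an unadjusted p under 0.05. The all-gene median of 0.15 in that comparison became -0.03 and -0.02 under the first and second scaling. With the replicate block, the ePRAoe call of Mthfd2 was lost (limma, adjusted p = 0.062), as were those of Adgrl1, Hdc, Ranbp17 and Zfp422 in ePRAoe and of Amdhd1, Atp6v0d2 and Ranbp17 in ePRBoe. Replicate numbers were not taken to pair libraries: same-numbered libraries of different genotypes correlated at -0.23 to 0.171 over deviations from genotype means. FPKM near 0 rest on few reads, so the exact share left under 1% is imprecise.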
